A study of Mus musculus with 10 samples.

Results

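The chemokines and their receptors were followed in the pregnant mouse uterus through 49 genes, 30 coding for secreted or membrane-bound ligands and 19 for receptors. They were chosen by symbol as members of the family, with earlier results of these data known, and each of the 49 matched 1 Ensembl gene of the count table, which lists 45706 genes. Whole-uterus mRNA was sequenced from 10 mice, 5 of them *Arid1a f/f* controls and 5 *Ltf iCre/+ Arid1a f/f* (called knockout here), on the morning of gestation day (GD) 3.5, when the uterus prepares for the embryo. All were females of 12 to 15 weeks, and both groups carry the floxed alleles of *Arid1a*, a subunit of the SWI/SNF chromatin remodeling complex. In the knockout, Cre recombinase is made from the lactoferrin (*Ltf*) gene, which is active in the endometrial epithelium of the adult, and the deletion is meant for that epithelium, while stroma, muscle and vessels of the same uterus keep *Arid1a*. The same Cre is reported in neutrophils and other myeloid cells too, and the strain background was mixed, with C57BL/6 beside 129S6/SvEvTac, 129P2/OlaHsd and 129S1/SvImJ. The question was which chemokine signals differ in the uterus when its epithelium has lost *Arid1a*.

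Chemokines are small proteins that bind to heparan sulfate on cell surfaces and form gradients along which leukocytes migrate. They are named by the spacing of their first cysteines (CC, CXC, CX3C, XC) and act through G protein-coupled receptors (Ccr, Cxcr, Cx3cr, Xcr) carried mainly by leukocytes, and most receptors bind several ligands. Atypical receptors (Ackr) bind chemokines without G protein signaling and remove them from the tissue. In the uterus of early pregnancy, chemokines from epithelium, stroma and resident macrophages are known for drawing in macrophages, dendritic cells, T cells, natural killer cells and neutrophils.

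Total counts ran from 65351817 to 72702411 in the control libraries (median 69466463) and from 59296537 to 67990486 in the knockout libraries (median 66394923). Expression is given in CPM, a count scaled by the size of its library, with sizes normalized by edgeR's TMM method, and 3 counts stood at 0.0418 to 0.0507 CPM. *Arid1a* itself had 192 to 251 CPM in controls and 165 to 208 CPM in knockouts, with 4 of 5 knockouts below all controls and no change past the threshold (log2 fold change -0.20, edgeR adjusted p = 0.201). *Ltf*, the gene that carries the Cre, was higher in all 5 knockouts than in any control. The 8 uterus markers examined, such as *Esr1*, *Pgr* and *Hoxa10*, were all present, with summed levels of 1913 to 2182 CPM in controls and 1578 to 1914 CPM in knockouts. Knockout replicate 5 stood apart. It had the highest of the 10 values for 30 of the 49 members, against 15.2% of all tested genes. Neutrophil markers, the member *Cxcr2* among them, summed to 882 CPM in it and to at most 24.7 CPM in every other uterus. Inflammatory genes were known beforehand to be highest in this uterus, and calls without it were planned for that reason. The count of 30 is a description of genes chosen with this known, and no test. In whole tissue, more or fewer cells of a type and more or less RNA per cell cannot be told apart.

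All 49 members passed the filter of a mean of at least 1 count per library, as did 25146 genes in all. Of the 49, 8 differed between genotypes at an adjusted p under 0.05 (edgeR quasi-likelihood test, Benjamini-Hochberg over all tested genes), against 9.70% of all tested genes. The 7 that rose were the ligands *Ccl17*, *Ccl22*, *Cxcl5*, *Cxcl16* and *Cxcl17* and the receptors *Ccr4* and *Cxcr6*, where 5.19% of all genes rose. The 1 that fell was *Cxcl12*, where 4.51% of all genes fell. Counts of called cell markers and pathway genes below are to be set beside these shares. Among the 7 that rose were 2 ligand and receptor systems, *Ccl17* and *Ccl22* with *Ccr4*, and *Cxcl16* with *Cxcr6*.

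Without knockout replicate 5, *Ccl17*, *Ccr4*, *Cxcl16*, *Cxcl17*, *Cxcr6* and *Cxcl12* passed, 6 of the 48 members still tested, while *Ccl22* and *Cxcl5* did not. The background was then 9.15% of 25047 genes, 4.93% for rises and 4.22% for falls. The 2 genotypes did not overlap for the same 6 members with or without that uterus, against 10.7% of all genes with it (5.53% higher, 5.16% lower) and 13.7% without it (7.30% higher, 6.39% lower). DESeq2 called 12 members, 10 higher and 2 lower, against 16.3% of all genes (8.47% higher, 7.84% lower). It gave no p for 7 of the members, *Cxcl5* among them.

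Most differences were toward higher levels. The log2 fold change was above 0 for 37 of the 49 members and for 52.7% of all tested genes, with a median of 0.66 over the members and 0.03 over all genes. Without knockout replicate 5 it was above 0 for 31 of the 48 members and 51.8% of all genes, and the medians were 0.24 and 0.02. Over the 30 ligands the median moved from 0.85 to 0.35 when that uterus was left out, and over the 19 receptors from 0.56 to -0.08.

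**Figure D1:**
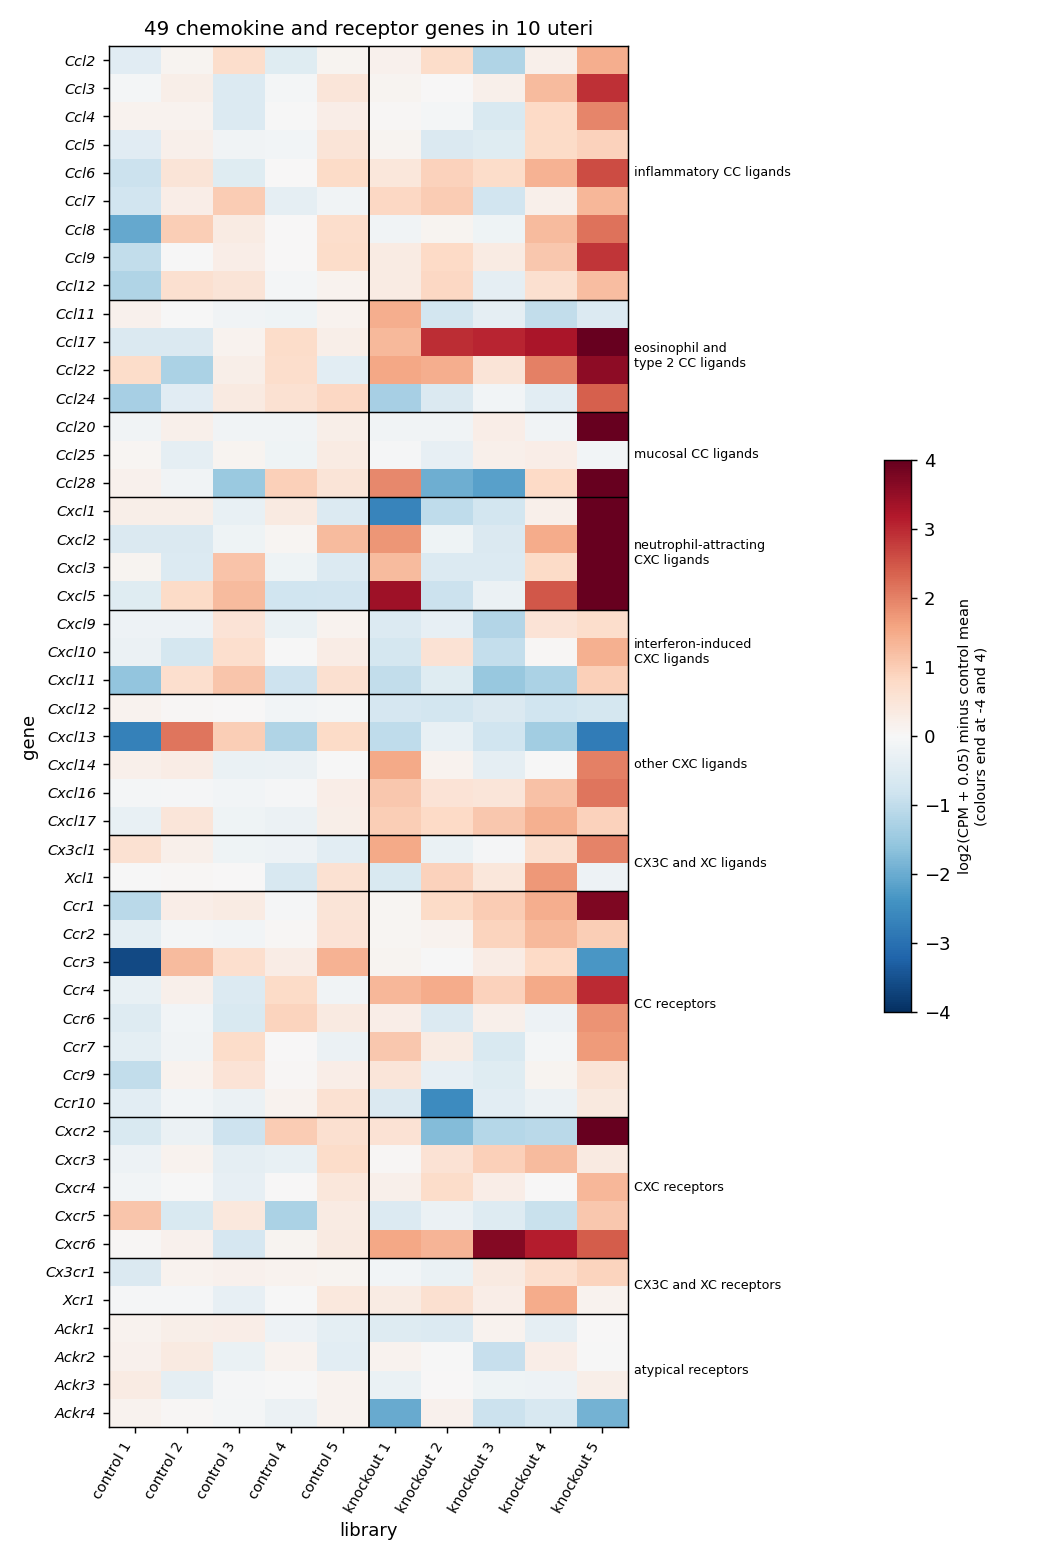
Heat map of the 49 members (rows, grouped by role) in the 10 uteri (columns), with color for log2(CPM + 0.05) minus the mean of the 5 controls; colors end at -4 and 4. The column of knockout replicate 5 is the reddest, with the highest of the 10 values for 30 of 49 genes, while *Ccl17*, *Ccr4* and *Cxcr6* are red and *Cxcl12* is pale blue in all 5 knockouts.

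Levels between genes were compared in CPM per kilobase of exon. In controls *Cxcl12* was the most abundant member with a mean of 37.0 CPM per kilobase, followed by *Cxcl14* with 31.0 and *Ccl8* with 24.7. In knockouts *Cxcl14* led with a mean of 59.8, followed by *Ccl8* with 39.7, *Cxcl17* with 24.1 and *Cxcl12* with 22.8 CPM per kilobase. Without knockout replicate 5 the same 4 led in the same order, with means of 43.7, 26.8, 24.6 and 22.9. The mean of *Cxcl14* then held 158 CPM in knockout replicate 1 against 43.5 to 61.8 CPM in replicates 2 to 4. That of *Ccl8* held 25.0 CPM in knockout replicate 4 against 9.24 to 11.2 CPM in replicates 1 to 3. The 10 members of highest mean level over all 10 uteri were *Cxcl14*, *Ccl8*, *Cxcl12*, *Cxcl17*, *Cxcl5*, *Ccl6*, *Ccr2*, *Cxcl16*, *Cxcr6* and *Xcl1*, and *Cxcl5* was among them only through knockout replicate 5. The ranges of *Cxcl14* and *Ccl8* overlapped between the genotypes, whereas those of *Cxcl12* and *Cxcl17* did not.

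**Figure D2:**
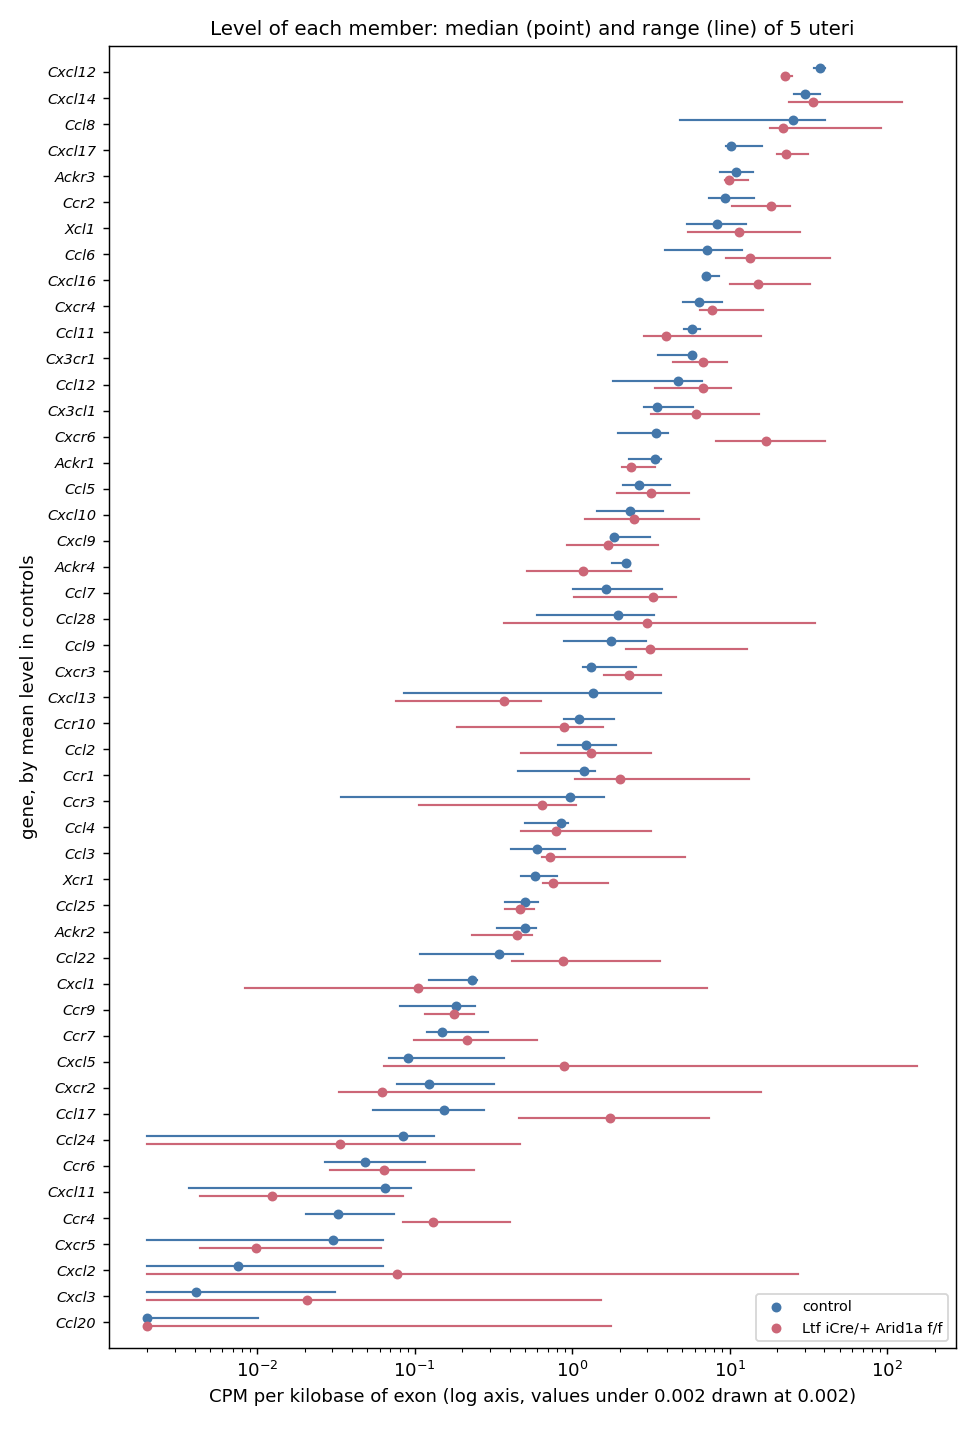
Level of each member in CPM per kilobase of exon (log axis), with the median as a point and the range of the 5 uteri as a line for controls (blue) and *Ltf iCre/+ Arid1a f/f* mice (red); values under 0.002 are drawn at 0.002. Blue and red lines are apart for *Cxcl12*, *Cxcl17*, *Cxcl16*, *Cxcr6*, *Ccl17* and *Ccr4*, and the red lines of *Cxcl5*, *Cxcl2*, *Cxcr2* and *Ccl20* run far to the right on the value of 1 uterus.

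Ccl17 and Ccl22 are both ligands of Ccr4, a receptor of type 2 helper and regulatory T cells, and are typically made by dendritic cells and macrophages. Both ligands and the receptor were higher in knockout uteri, although all 3 had low levels. *Ccl17* (ENSMUSG00000031780, GRCm38 chromosome 8, 94810453 to 94812036) had 0.0280, 0.0279, 0.0783, 0.142 and 0.0861 CPM in control replicates 1 to 5. It had 0.235, 0.845, 0.899, 1.06 and 3.78 CPM in knockout replicates 1 to 5. All 5 knockouts were above all controls, with replicate 5 highest and replicate 1 lowest among them. *Ccl17* rose by a log2 fold change of 4.21 (standard error 0.74, edgeR adjusted p = 0.00680), and by 3.36 (standard error 0.55, adjusted p = 0.00506) without replicate 5. When log2 CPM was compared by exact permutation of the uteri (two-sided), its p was 0.00794, the smallest that 5 uteri against 5 can give, and 0.0159 without replicate 5, the smallest for 5 against 4.

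*Ccl22* (ENSMUSG00000031779) lies on the same chromosome, from 94745590 to 94751699. It had 1.13, 0.251, 0.799, 1.11 and 0.488 CPM in the controls and 2.04, 1.89, 0.965, 2.83 and 8.45 CPM in the knockouts. Knockout replicate 3 lay within the control range and the other knockouts above it. Its log2 fold change was 2.10 (standard error 0.59, edgeR adjusted p = 0.0455). Without knockout replicate 5 it was 1.35 (standard error 0.43, adjusted p = 0.0772) and did not pass. *Cx3cl1* lies between *Ccl22* and *Ccl17*, the 3 genes spanning 66.4 kb, and it did not pass the threshold.

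*Ccr4* (ENSMUSG00000047898, chromosome 9, 114490316 to 114504916) had 0.0839, 0.139, 0.0627, 0.227 and 0.101 CPM in the controls. In the knockouts it had 0.361, 0.406, 0.262, 0.421 and 1.24 CPM. Every knockout was above every control, by little for replicate 3. Without replicate 5 the log2 fold change was 1.54 (standard error 0.40, edgeR adjusted p = 0.0368), against 2.12 with it (adjusted p = 0.0250). Of the 9 dendritic cell markers edgeR called 0 higher and 1 (*Zbtb46*) lower, with or without replicate 5, and 8 had log2 fold changes above 0, with a median of 0.65 (0.69 without replicate 5). The members *Xcr1* and *Ccr7* are among these 9 markers, and the median of 0.65 is the value of *Xcr1* itself. DESeq2 called *Itgax* (adjusted p = 0.0207) and *Batf3* (0.00704) higher. The sum of the 9 was 59.8 to 71.7 CPM in controls and 65.9 to 116 CPM in knockouts. Of the 10 T cell markers, 4 (*Cd3d*, *Cd3e*, *Cd3g*, *Cd5*) rose, 3 of them without replicate 5, where *Cd5* had an adjusted p of 0.0501. The sum of the 10 was 29.3 to 41.9 CPM in controls and 42.3 to 94.1 CPM in knockouts. The part of these cells in the *Ccl17*, *Ccl22* and *Ccr4* results was not tested.

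The 250 bases before the *Ccl17* start site (RefSeq, GRCm38.p6, plus strand, chr8:94810203-94810452) are shown because *Ccl17* had the largest rise that was called in all 18 fits made. Capitals mark both matches to the palindromes bound by STAT proteins, TTCNNNNGAA, the spacing preferred by STAT6, and TTCNNNGAA, counted on both strands.
Ccl17: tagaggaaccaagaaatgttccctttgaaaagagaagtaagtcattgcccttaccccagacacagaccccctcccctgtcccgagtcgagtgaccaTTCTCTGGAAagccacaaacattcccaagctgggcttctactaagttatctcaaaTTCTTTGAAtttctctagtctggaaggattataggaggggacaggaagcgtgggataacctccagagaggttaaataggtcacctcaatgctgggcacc
*Ccl17* was the only member of the 36 with a promoter in the RefSeq table to hold TTCNNNNGAA, which 5.85% of 32851 promoters hold. TTCNNNGAA was found in 3 of the 36 (*Ccl17*, *Ccr6* and *Cxcl14*) and in 7.02% of all promoters. A match is a description of the letters and not evidence of binding.

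The other ligands of eosinophil and type 2 responses, *Ccl11* and *Ccl24*, did not pass. *Ccl11* (eotaxin, which attracts eosinophils through Ccr3) had 5.57 to 7.05 CPM in the controls and 17.1, 3.75, 4.81, 3.11 and 4.25 CPM in the knockouts. Knockout replicate 1 was above and the other 4 knockouts were below every control. The log2 fold change of 0.08 (edgeR adjusted p = 0.935) became -0.66 (adjusted p = 0.0438) without knockout replicate 1. *Ccl24* was at 0 to 0.172 CPM in 9 uteri and 0.608 CPM in knockout replicate 5. Their receptor *Ccr3* had 0.112 to 5.18 CPM in controls and 0.347 to 3.44 CPM in knockouts. Of the eosinophil markers, *Ccr3* itself among them, 5 of 8 were tested. Of these 1 (*Ear2*) rose with or without replicate 5, and *Epx* did not exceed the level of 3 counts in any uterus.

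Cxcl16, a membrane-bound chemokine of epithelium, endothelium and macrophages, is the ligand of Cxcr6, which is carried by effector and tissue-resident T cells and innate lymphoid cells. Ligand and receptor rose together and stayed past the threshold without knockout replicate 5. *Cxcl16* (ENSMUSG00000018920, chromosome 11, 70453983 to 70459984) had 20.5, 21.3, 20.3, 21.3 and 25.9 CPM in the controls. It had 45.8, 31.7, 30.5, 48.7 and 97.1 CPM in the knockouts, all above every control. *Cxcl16* rose by a log2 fold change of 1.22 (standard error 0.28, edgeR adjusted p = 0.0213), and 0.84 (standard error 0.15, adjusted p = 0.00809) without replicate 5. Exons of *Cxcl16* overlap those of *Zmynd15* on the opposite strand. How reads of the shared stretch were counted depends on the strand setting, which is not given in the sources used here.

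*Cxcr6* (ENSMUSG00000048521, chromosome 9, 123806475 to 123811760) had 6.21, 6.82, 3.79, 6.60 and 7.78 CPM in the controls and 17.7, 15.8, 78.1, 53.7 and 33.1 CPM in the knockouts. All knockouts were above all controls, and here replicates 3 and 4 were highest, not replicate 5. For *Cxcr6* the log2 fold change of 2.67 (standard error 0.42, edgeR adjusted p = 0.00433) was 2.73 (adjusted p = 0.00509) without replicate 5. Among the 19 receptors it was the largest change that passed. Its order over the knockouts differed from that of its ligand, which was highest in replicate 5 and lowest in replicate 3. The T cell marker *Cd3g*, 1 of the 4 called among 10, ran from 2.66 to 4.45 CPM in controls and from 9.31 to 42.6 CPM in knockouts. Over all 10 markers the log2 fold change ran from 0.19 to 2.39, with a median of 0.76 (0.57 without replicate 5). The part of T cells in the *Cxcr6* result was not tested.

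*Ccr4* and *Cxcr6* both lie on chromosome 9, which also carries *Ltf*. Of the 49 members, 10 lie within 15 Mb of *Ltf* and 2 of these, *Ccr4* and *Cxcr6*, were called. The share called over all tested genes was 9.70%, and the share over all genes of that stretch was not counted. Knockout mice alone carry the Cre allele there, so that, in mice of mixed strain, genotype at *Ltf* and at linked genes cannot be told apart in this design.

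*Cxcl17* (ENSMUSG00000060188, chromosome 7, 25400053 to 25412886), a chemokine of mucosal epithelia, had 7.20, 12.3, 7.71, 7.41 and 10.3 CPM in the controls. In the knockouts it had 17.3, 15.3, 18.6, 23.8 and 16.5 CPM. Every knockout was above every control and replicate 5 was among the lower ones. *Cxcl17* rose by a log2 fold change of 1.03 (standard error 0.18, edgeR adjusted p = 0.00682), and by 1.06 (adjusted p = 0.00796) without replicate 5. Epithelial markers moved in the same direction, 7 of 9 being called higher (6 without replicate 5, where *Epcam* had an adjusted p of 0.0625), with sums of 751 to 1004 CPM in controls and 1114 to 2183 CPM in knockouts. Their part in the *Cxcl17* and *Cxcl16* results was not tested.

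*Cxcl12* (ENSMUSG00000061353, chromosome 6, 117168535 to 117181367) is the homeostatic chemokine of stromal and endothelial cells that retains Cxcr4-bearing cells in tissue. It was the only member called lower in the edgeR fits of all 10 uteri and without knockout replicate 5. It had 330, 311, 305, 279 and 286 CPM in the controls and 189, 182, 204, 175 and 185 CPM in the knockouts. The groups did not overlap and knockout replicate 5 lay within the range of the other knockouts. The log2 fold change was -0.69 (standard error 0.08, edgeR adjusted p = 0.000934), and -0.69 (adjusted p = 0.00141) without replicate 5. Neither of its receptors passed. *Cxcr4* had 9.20 to 16.1 CPM in controls and 11.7 to 29.4 CPM in knockouts (log2 fold change 0.56, edgeR adjusted p = 0.177), and the scavenging receptor *Ackr3* had 29.1 to 47.1 CPM and 31.1 to 44.0 CPM (log2 fold change -0.09, edgeR adjusted p = 0.747).

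Endothelial markers were lower beside *Cxcl12*, 6 of 8 being called and 7 without replicate 5, with sums of 837 to 1150 CPM in controls and 428 to 570 CPM in knockouts. Of the 8 stromal markers 2 (*Dcn* and *Vim*) were called lower and 3 without replicate 5, where *Pdgfrb* was added. Their sums overlapped, with 7219 to 9311 CPM in controls and 6025 to 10120 CPM in knockouts. The part of these cells in the fall of *Cxcl12* was not tested.

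The remaining CXC ligands of this kind did not pass in edgeR. *Cxcl14*, a chemokine of epithelium and stroma and the most abundant member over all uteri, had 47.0 to 68.7 CPM in controls and 158, 61.8, 43.5, 55.6 and 227 CPM in knockouts. Knockout replicates 1 and 5 were far above the controls and the other 3 lay within or below their range. *Cxcl13*, which attracts B cells through Cxcr5, varied from 0.0979 to 4.22 CPM in controls and from 0.0868 to 0.727 CPM in knockouts. With a log2 fold change of -1.98, it did not pass in edgeR (adjusted p = 0.148) and passed in DESeq2 (adjusted p = 0.0452).

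**Figure D3:**
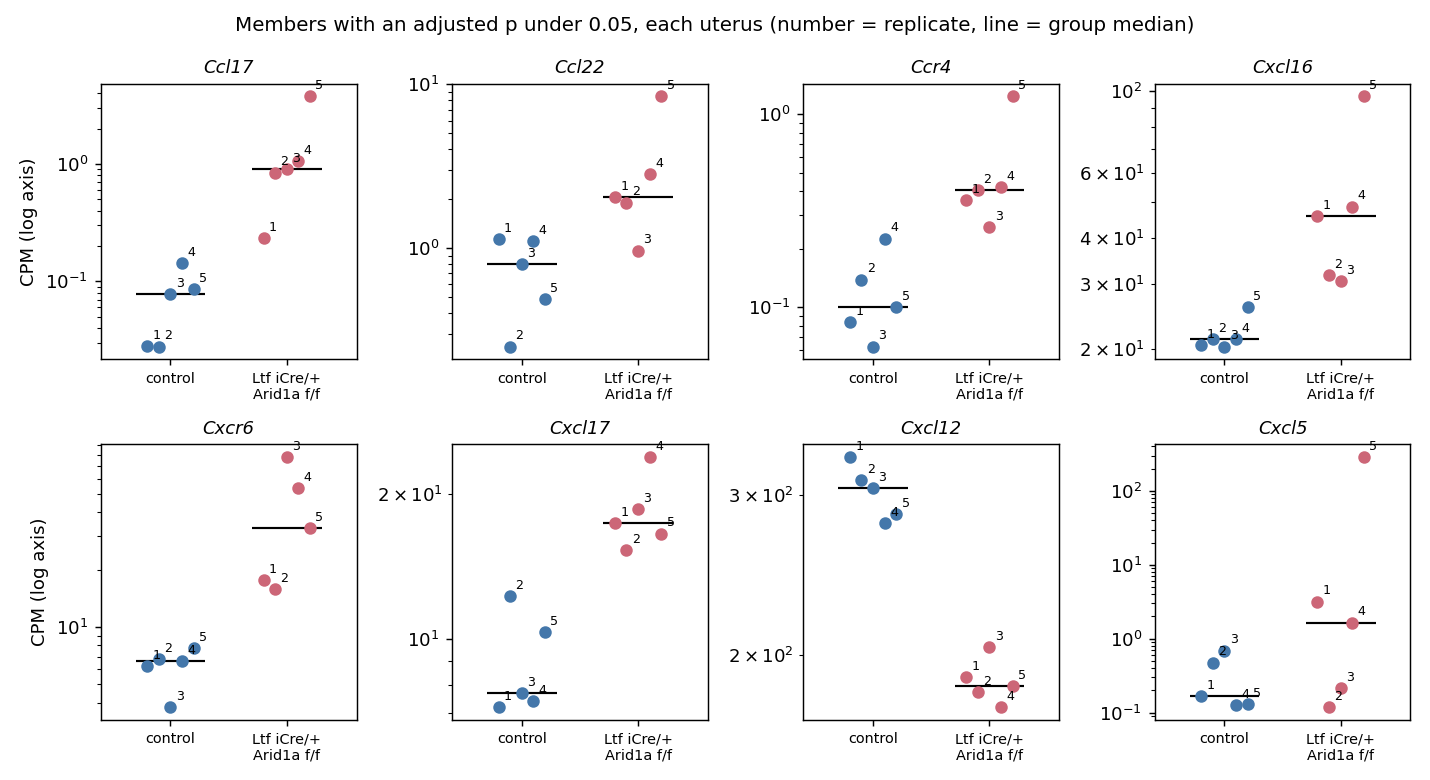
CPM (log axis) of the 8 members with an adjusted p under 0.05 in each of the 5 control and 5 *Ltf iCre/+ Arid1a f/f* uteri, with the replicate number beside each point and a line at the group median. The groups are apart for *Ccl17*, *Ccr4*, *Cxcl16*, *Cxcr6*, *Cxcl17* and *Cxcl12* and overlap for *Ccl22* and *Cxcl5*, and *Cxcl5* reaches 288 CPM in replicate 5.

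Cxcl1, Cxcl2, Cxcl3 and Cxcl5 attract neutrophils through Cxcr2, and their 4 genes lie together in 146.6 kb of chromosome 5. All 4 ligands and *Cxcr2* were highest in knockout replicate 5, and none of them passed without it. *Cxcl5* (ENSMUSG00000029371, chromosome 5, 90759360 to 90761624) had 0.168, 0.474, 0.689, 0.128 and 0.129 CPM in the controls and 3.18, 0.118, 0.213, 1.66 and 288 CPM in the knockouts. Knockout replicates 1, 4 and 5 were above the controls and replicate 2 was below them all. The log2 fold change of 7.54 (standard error 2.12, edgeR adjusted p = 0.0459) was 2.03 (standard error 0.87, adjusted p = 0.170) without replicate 5. The exact permutation test of log2 CPM gave a two-sided p of 0.135 with all 10 uteri, and DESeq2 gave no p for *Cxcl5*.

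The other 3 ligands of the cluster did not pass in either fit. *Cxcl1* had 13.5 CPM in knockout replicate 5 and at most 0.469 CPM in the other 9 uteri, and its log2 fold change turned from 2.95 to -0.90 without that uterus. *Cxcl2* had 56.4 CPM there and at most 0.204 CPM elsewhere (log2 fold change 8.28, edgeR adjusted p = 0.0554, and 1.42 without it). *Cxcl3* had 5.31 CPM there and at most 0.125 CPM elsewhere. The receptor *Cxcr2* had 48.0 CPM in knockout replicate 5 and 0.101 to 0.966 CPM in the others, with a log2 fold change of 4.24 (adjusted p = 0.122) that became -0.81 without it.

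Most neutrophil markers, 9 of the 10 tested, were also highest in knockout replicate 5. *Cxcr2* is itself among these markers, so that its values count in the numbers and sums given for them. *S100a8* had 290 CPM and *S100a9* 383 CPM in knockout replicate 5, against at most 1.26 and 2.12 CPM in every other uterus. *Mpo* went the other way, with 0.238 to 1.94 CPM in controls and 0.232 CPM in that uterus (log2 fold change -0.55, edgeR adjusted p = 0.555). Of the 11 neutrophil markers 10 were tested and 2 (*Ly6g* and *Mmp8*) were called higher, of which *Ly6g* (adjusted p = 0.0457) also passed without that uterus. Without it, 5 of the 9 markers tested had log2 fold changes above 0, with a median of 0.12. The sum of the 11 was 6.28 to 24.7 CPM in controls and 13.2 to 23.9 CPM in the other 4 knockouts. *Elane* did not exceed the level of 3 counts in any uterus. The part of neutrophils in the ligand values was not tested.

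*Ccl20*, the ligand of Ccr6, followed the same uterus. No control had more than 1 count of it, and knockout replicate 5 had 2.50 CPM, at least 57.8-fold higher than the control level that 3 counts per library would give. The other 4 knockouts were at 0 to 0.0164 CPM, so that the value rests on 1 uterus.

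The promoters of *Cxcl1*, *Cxcl2*, *Cxcl3* and *Ccl20* are shown because these 4 ligands were at or below 0.469 CPM in the other 9 uteri and were high together in knockout replicate 5. Each sequence is the 250 bases before the RefSeq start site on the plus strand of GRCm38.p6, at chr5:90890995-90891244, chr5:90903649-90903898, chr5:90785851-90786100 and chr1:83116516-83116765 in this order. Capitals mark matches to GGGAANNNCC, the kappaB motif bound by NF-kappaB, counted on both strands, and matches that overlap are joined.
Cxcl1: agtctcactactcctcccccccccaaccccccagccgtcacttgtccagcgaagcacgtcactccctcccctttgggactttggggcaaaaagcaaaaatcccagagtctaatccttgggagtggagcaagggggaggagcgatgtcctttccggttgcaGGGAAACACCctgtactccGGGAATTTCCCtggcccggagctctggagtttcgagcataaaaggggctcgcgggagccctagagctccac
Cxcl2: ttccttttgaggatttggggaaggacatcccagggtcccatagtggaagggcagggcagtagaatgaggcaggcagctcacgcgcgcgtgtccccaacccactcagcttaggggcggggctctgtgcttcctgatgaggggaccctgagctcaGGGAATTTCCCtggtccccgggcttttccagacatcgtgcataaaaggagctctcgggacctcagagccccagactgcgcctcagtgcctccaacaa
Cxcl3: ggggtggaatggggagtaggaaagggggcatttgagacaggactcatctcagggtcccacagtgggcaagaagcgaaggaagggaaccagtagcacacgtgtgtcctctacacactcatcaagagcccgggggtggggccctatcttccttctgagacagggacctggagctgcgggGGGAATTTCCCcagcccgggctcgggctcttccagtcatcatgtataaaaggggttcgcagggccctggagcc
Ccl20: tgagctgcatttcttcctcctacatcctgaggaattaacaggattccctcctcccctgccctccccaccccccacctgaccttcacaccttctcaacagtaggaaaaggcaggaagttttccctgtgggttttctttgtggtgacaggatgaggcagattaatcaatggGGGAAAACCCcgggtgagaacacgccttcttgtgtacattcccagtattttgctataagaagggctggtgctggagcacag
*Cxcl1*, *Cxcl2* and *Cxcl3* share the stretch GGGAATTTCCC, which begins 71, 97 and 73 bases before their start sites. Of the 36 member promoters 8 hold GGGAANNNCC, against 4.94% of 32851 promoters, the other 4 being those of *Ccr3*, *Ccr6*, *Cxcl9* and *Cxcl10*. A looser form, GGGNNNNNCC, occurs in 20 of the 36 and in 45.8% of all promoters. *Cxcl5* has no entry in the table. *Cxcl1*, *Cxcl2* and *Cxcl3* are neighbors with a shared stretch, so that the 8 promoters are not independent. Here too a match is a description of the letters and not evidence of binding. The other motifs searched were the interferon response element GAAANNGAAA (2 of 36 members, *Cxcl10* and *Cxcl14*, and 2.98% of all promoters), the AP-1 motif TGANTCA (4 of 36 and 6.75%), the E-box CACGTG (2 of 36 and 6.02%) and the cyclic AMP response element TGACGTCA (0 of 36 and 1.55%).

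The remaining mucosal CC ligands did not pass. *Ccl28*, a ligand of Ccr10 made by mucosal epithelia, had 2.91 to 16.1 CPM in controls and 31.8, 2.08, 1.78, 14.5 and 168 CPM in knockouts, so that knockout replicates 1 and 5 were above and replicates 2 and 3 below every control. *Ccl25*, the ligand of Ccr9, had 2.77 to 4.52 CPM in controls and 2.81 to 4.29 CPM in knockouts. Exons of *Ccl25* overlap those of *Elavl1* on the opposite strand.

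The 9 inflammatory CC ligands (*Ccl2*, *Ccl3*, *Ccl4*, *Ccl5*, *Ccl6*, *Ccl7*, *Ccl8*, *Ccl9*, *Ccl12*), which attract monocytes, macrophages and T cells through receptors such as Ccr1 and Ccr2, all had log2 fold changes above 0, from 0.24 to 1.45, and 0 of the 9 passed in edgeR. All 9 were highest in knockout replicate 5. Their summed level was 17.9 to 57.9 CPM in controls and 43.0 to 83.2 CPM in the other 4 knockouts, and 188 CPM in replicate 5. Their median log2 fold change was 0.68 with that uterus and 0.30 without it. DESeq2 called 2 of the 9, *Ccl6* and *Ccl9*.

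*Ccl6* had 6.98, 18.0, 9.03, 12.8 and 21.6 CPM in the controls and 17.1, 24.0, 21.0, 33.2 and 77.6 CPM in the knockouts. Knockout replicates 1 and 3 lay within the control range. Its log2 fold change was 1.34 (standard error 0.43), with an adjusted p of 0.0748 in edgeR and 0.0128 in DESeq2, and 0.80 (adjusted p = 0.134 in edgeR) without replicate 5. *Ccl9* had 2.69 to 8.97 CPM in controls and 6.71 to 39.3 CPM in knockouts (log2 fold change 1.35, adjusted p = 0.114 in edgeR and 0.0305 in DESeq2, and 0.57 with an edgeR adjusted p of 0.263 without replicate 5). *Ccl8*, the most abundant of these ligands per kilobase, had 2.48 to 20.5 CPM in controls and 9.24 to 46.6 CPM in knockouts, and the groups overlapped. *Ccl2*, the principal monocyte attractant and ligand of Ccr2, had 0.923 to 2.16 CPM in controls and 0.540 to 3.62 CPM in knockouts, with a log2 fold change of 0.45 (edgeR adjusted p = 0.565), and 0.06 without replicate 5.

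Macrophage markers were highest in the same uterus. Of the 11, 10 had their highest value in knockout replicate 5 and 0 were called by edgeR, while without it 1 (*Mertk*) was called lower. With all 10 uteri DESeq2 called *Cd68* (adjusted p = 0.018) and *Lyz2* (0.014) higher and *Mertk* (0.039) lower. Their sum was 378 to 704 CPM in controls, 572 to 856 CPM in the other 4 knockouts and 1708 CPM in replicate 5. The part of macrophages in the values of the CC ligands was not tested.

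Cxcl9, Cxcl10 and Cxcl11 are induced by interferons and attract T cells and natural killer cells through Cxcr3. None of the 3 passed, and their log2 fold changes were -0.03, 0.27 and -0.87. *Cxcl9* had 5.33 to 9.39 CPM in controls and 2.81 to 10.5 CPM in knockouts, and *Cxcl10*, whose exons overlap those of *Art3* on the opposite strand, had 3.25 to 8.54 CPM and 2.71 to 14.3 CPM. *Cxcl11*, annotated as a polymorphic pseudogene, stayed at or below 0.360 CPM in all uteri. *Cxcr3* had 2.02 to 4.38 CPM in controls and 2.74 to 6.36 CPM in knockouts (log2 fold change 0.66, edgeR adjusted p = 0.169).

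The CX3C and XC families did not pass either. *Cx3cl1* (fractalkine, a membrane-bound ligand) had 11.3 to 23.0 CPM in controls and 43.1, 12.5, 14.6, 23.9 and 60.3 CPM in knockouts, with replicates 1 and 5 well above the rest. Its receptor *Cx3cr1*, a marker of resident macrophages and monocytes, had 15.9 to 26.6 CPM in controls and 19.8 to 43.4 CPM in knockouts. *Xcl1*, which is made by natural killer and T cells, had 2.80 to 6.60 CPM in controls and 2.82 to 14.5 CPM in knockouts. *Xcr1*, its receptor on cross-presenting dendritic cells, had 2.12 to 3.59 CPM and 2.91 to 7.54 CPM.

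Of the 8 CC receptors, *Ccr4* alone passed in edgeR, and DESeq2 also called *Ccr1* and *Ccr2*. *Ccr2*, the receptor of inflammatory monocytes and the CC receptor of highest level per kilobase, had 50.2, 63.4, 61.8, 68.0 and 97.1 CPM in the controls and 69.6, 72.7, 124, 164 and 131 CPM in the knockouts. Knockout replicates 1 and 2 lay below the highest control and the other 3 above it. Its log2 fold change was 0.72 (adjusted p = 0.0897 in edgeR and 0.0372 in DESeq2), and 0.66 (edgeR adjusted p = 0.140) without replicate 5. Of the 8 inflammatory monocyte markers, *Ccr2* itself among them, edgeR called 1 (*Chil3*) higher and 1 (*Fn1*) lower. Without replicate 5 it called 0 higher and 1 lower. Their median log2 fold change was 0.57 with that uterus and 0.10 without it. The part of monocytes in the *Ccr2* values was not tested. *Ccr1*, a receptor of monocytes and neutrophils, had 1.29 to 3.98 CPM in controls and 2.95, 4.72, 5.69, 7.76 and 37.6 CPM in knockouts. Knockout replicates 2 to 5 were above every control. Adjusted p-values were 0.0763 in edgeR and 0.0288 in DESeq2 for a log2 fold change of 1.98, which was 0.83 (edgeR adjusted p = 0.153) without replicate 5.

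The other receptors for lymphocyte traffic had low levels and did not pass. *Ccr6*, *Ccr7* and *Cxcr5* stayed at or below 1.19 CPM in all uteri, and *Ccr7*, the lymph node homing receptor of dendritic cells and T cells, had 0.238 to 0.580 CPM in controls and 0.196 to 1.19 CPM in knockouts. *Ccr9* and *Ccr10* lay between 0.321 and 3.17 CPM with overlapping groups.

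The 4 atypical receptors had log2 fold changes below 0, from -0.83 to -0.09, and 0 of 4 passed. *Ackr4*, which scavenges Ccl19, Ccl21 and Ccl25, had 12.5, 11.8, 10.8, 9.56 and 12.4 CPM in the controls and 2.79, 12.7, 6.28, 7.28 and 3.01 CPM in the knockouts. Knockout replicate 2 was above all controls and the other 4 were below them all (log2 fold change -0.83, edgeR adjusted p = 0.169, and -1.24 with an adjusted p of 0.0270 without replicate 2). Exons of *Ackr4* overlap those of *Acad11* on the opposite strand. *Ackr1* and *Ackr2* had 3.23 to 5.17 and 1.05 to 1.85 CPM in controls and 2.92 to 4.69 and 0.719 to 1.73 CPM in knockouts.

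**Figure D4:**
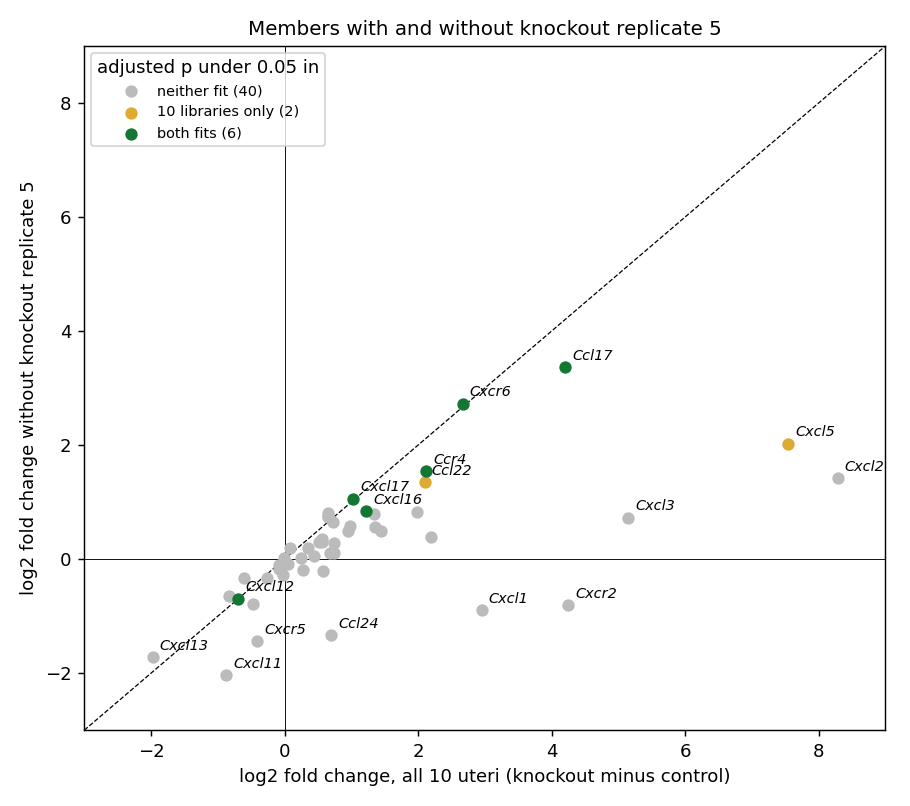
Log2 fold change (knockout minus control) of 48 members in the fit of all 10 uteri (x axis) and without knockout replicate 5 (y axis), with a dashed line where both are equal; *Ccl20* was not tested in the second fit. The 6 genes called in both fits (green) lie near the line, whereas *Cxcl5*, *Cxcl2*, *Cxcl3*, *Cxcl1* and *Cxcr2* lie far below it.

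Calls were also counted by position, where 9.70% of all tested genes were called. With a gap of at most 200 kb between neighbors, 6 clusters of at least 3 members were found. Of *Ccl2*, *Ccl7*, *Ccl11*, *Ccl12* and *Ccl8* on chromosome 11, 0 were called, and likewise 0 of *Ccl5*, *Ccl9*, *Ccl6*, *Ccl3* and *Ccl4* on the same chromosome and 0 of *Cxcl9*, *Cxcl10* and *Cxcl11* on chromosome 5. Of the 6 receptors *Ccr9*, *Cxcr6*, *Xcr1*, *Ccr1*, *Ccr3* and *Ccr2* within 435.1 kb of chromosome 9, *Cxcr6* alone was called. The neutrophil-attracting cluster held 1 called gene of 4, *Cxcl5*, and the cluster of *Ccl22*, *Cx3cl1* and *Ccl17* held 2 of 3.

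Other genes of the chemokine pathway were counted from 4 lists. Of all tested genes 9.70% were called, 5.19% higher and 4.51% lower. Without knockout replicate 5 the share was 9.15%, with 4.93% higher and 4.22% lower. Of 32 genes of receptor signaling (G proteins, arrestins, kinases and exchange factors) 3 rose and 1 fell, with a median log2 fold change of 0.11. *Arrb1* (beta-arrestin 1, which uncouples and internalizes receptors) fell from 130 to 175 CPM in controls to 91.5 to 132 CPM in knockouts (log2 fold change -0.51, edgeR adjusted p = 0.0257, and -0.60 with 0.00896 without replicate 5). *Arrb2* (log2 fold change 0.40, adjusted p = 0.0321), *Plcb2* (0.70, 0.0365) and *Vav1* (0.73, 0.0489) rose, and none of these 3 passed without knockout replicate 5 (adjusted p of 0.0561, 0.0567 and 0.0748).

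Of 18 genes for the processing and presentation of chemokines 5 rose and 0 fell, against 4 and 0 without replicate 5. *Mmp12*, a macrophage elastase that trims chemokines, had 0.0470 to 0.224 CPM in controls, 0.736 to 1.77 CPM in the other knockouts and 21.8 CPM in knockout replicate 5 (log2 fold change 5.52, edgeR adjusted p = 0.0117, and 3.42 with 0.00204 without replicate 5). *Cpm*, a membrane carboxypeptidase that removes basic residues from the ends of peptides, had 12.2 to 25.3 CPM in controls and 31.8 to 129 CPM in knockouts (1.86, 0.0115, and 1.48 with 0.0112 without replicate 5). *Hs6st1*, which sulfates heparan sulfate, had 49.2 to 60.5 CPM in controls and 68.6 to 162 CPM in knockouts (1.05, 0.0163, and 0.90 with 0.0246 without replicate 5). *Sdc1* (0.51, 0.0432) and *Mmp8* (5.99, 0.0440) rose and did not pass without replicate 5 (adjusted p of 0.0730 and 0.0919), whereas *Sdc4* (0.38, 0.0338) passed there and not with all 10 uteri.

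Of 19 leukocyte adhesion genes tested 3 rose and 2 fell. The leukocyte genes *Selplg* (log2 fold change 0.98, edgeR adjusted p = 0.0274), *Itgb2* (1.03, 0.0404) and *Itgb7* (0.99, 0.0330) rose, and the endothelial genes *Icam2* (-0.93, 0.0103) and *Pecam1* (-0.93, 0.00273) fell. Without replicate 5, *Selplg* (0.80, 0.0437), *Itgb7* (1.05, 0.0353), *Icam2* (-0.80, 0.00638) and *Pecam1* (-0.86, 0.00406) passed again and *Itgb2* did not (adjusted p = 0.0520). *Selp* (-1.29, 0.0260) and *Itga4* (-0.55, 0.0392) were then also called lower. Of 14 further genes of the family tested, *Ccr1l1*, a receptor-like gene next to *Ccr1*, was called (log2 fold change 2.18, edgeR adjusted p = 0.0104, and 2.28 with 0.0104 without replicate 5). It had 0.0558 to 0.126 CPM in controls and 0.204 to 0.683 CPM in knockouts, and it is named here after its values were seen. *Cxcl15*, a chemokine of mucosal glands, is likewise named after its values were seen. It had 36.0 to 60.1 CPM in controls and 2.68 to 32.9 CPM in knockouts, with no overlap between the groups, and a log2 fold change of -1.24 that passed in DESeq2 (adjusted p = 0.0405) and not in edgeR (adjusted p = 0.127, and -1.13 with 0.194 without replicate 5). *Cxcl15* is also 1 of the 7 gland markers, of which 0 had a log2 fold change above 0 and 1 was called lower (2 without replicate 5), and the part of glands in its values was not tested.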

How the data were processed

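RNA of 10 whole uteri, each from 1 mouse, was turned into mRNA libraries and read as 50 bp pairs by the authors. They trimmed the reads (cutadapt 1.18, Trim Galore 0.6.4), aligned them to GRCm38 with STAR 2.7.3a and deposited whole-number counts per gene, without normalization. The annotation release and strand setting are not given in the sources used here. Symbols came from GENCODE M21, which held 45143 of the 45706 identifiers. The 25146 genes whose mean reached 1 count per library were tested in R 4.3.3 with edgeR 4.0.16 (TMM, quasi-likelihood test, a model of genotype alone, Benjamini-Hochberg adjusted p under 0.05), in all 10 libraries and without knockout replicate 5. DESeq2 1.42.0 and limma 3.58.1 (voom with quality weights) were alternatives, with other normalizations, filters, a replicate block and each uterus left out. Leaving out knockout replicates 1 and 5 together was added after seeing the data. Standard errors given with edgeR log2 fold changes are their absolute value over the square root of the test's F, so that they restate the test. Single genes were also compared by exact permutation (two-sided) of log2 CPM (prior count 2). CPM per kilobase used the union of exons. The procedures were tested on simulated counts.

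The members and gene lists were chosen with earlier results of these data known, and no list was tested as a set. Genes named with values were those called in edgeR (with or without knockout replicate 5) or DESeq2, those whose groups did not overlap, the 10 of highest level per kilobase, and their ligands or receptors. The rest were named by count and range, and a few (*Ccl11*, *Ccl28* and *Ackr4* among them) were given in more detail after their values were seen. Of the pathway lists, called genes with a mean of at least 100 counts were named. The labels do not say whether the same replicate numbers pair the uteri. The correlations of same-numbered deviations were 0.0247, 0.0588, -0.0529, 0.0175 and 0.128. Such low values cannot exclude a pairing, and the paper used littermates where it could. No 2 libraries were duplicates. Promoters (RefSeq, GRCm38.p6) were matched by symbol for 36 of 49 members, and 8 motifs were searched in the 250 bases before the start. Drawings used matplotlib 3.10.9.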

Additional observations from a re-analysis of the deposited data

Results flagged for a closer look

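In 8 of 98 groups of 5 uteri 1 library lay far from the other 4, where chance gives about 1 in 20 such groups. In the knockouts, *Ccl20* (2.50 CPM) and *Cxcl2* (56.4 CPM) were far above the others in replicate 5, and *Ccr3* (0.347 CPM) was far below them there. *Ccl11* (17.1 CPM) was far above in knockout replicate 1, and *Ackr2* (0.719 CPM) far below in knockout replicate 3. In the controls, *Ccr3* (0.112 CPM) and *Cx3cr1* (15.9 CPM) were far below in replicate 1, and *Cxcl16* (25.9 CPM) was far above in replicate 5, still under the lowest knockout.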

How the results depend on the processing

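Of the 8 called members, *Ccl17*, *Cxcr6*, *Cxcl17* and *Cxcl12* were called in all 18 fits, *Cxcl16* in 15, *Ccr4* in 13, *Cxcl5* in 8 of the 17 that tested it and *Ccl22* in 7. *Cxcl16* missed the threshold without control replicates 2, 3 or 4 (adjusted p up to 0.0594), and *Ccr4* without control replicates 1, 2, 3 or 5 (up to 0.0658) and without knockout replicates 1 and 5 together (0.0546). *Cxcl5* and *Ccl22* missed it without any 1 of the controls (up to 0.105 and 0.103), and their log2 fold changes under voom were 1.71 and 1.50. The number of members called was 8 with voom, DESeq2 size factors, either filter, 12 with DESeq2 and 7 without knockout replicates 1 and 5, and with each uterus left out it lay between 4 (without control replicates 2 or 3) and 10 (without knockout replicate 2), with 5 without control replicates 1, 4 or 5. The number of all genes called was 4103 with DESeq2 and 1204 to 2381 with each uterus left out, lowest without control replicates 2 (1204), 3 (1248) and 4 (1414). The number of members whose groups did not overlap was 6 to 9 with each uterus left out. With the longest transcript as length, 9 of the 10 highest per kilobase stayed among them. DESeq2 gave neither a p nor an adjusted p for 7 members (*Ccl11*, *Ccl20*, *Cxcl1*, *Cxcl2*, *Cxcl3*, *Cxcl5* and *Cxcr2*). Its default rule withholds the p of a gene with an extreme count in a library. The 12 members it called are therefore among the others. The causes of the other differences between settings were not tested.

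With the replicate number as a block, 9 members and 1704 genes were called, and receptor signaling had 0 calls, processing and presentation 3, adhesion 3 and other family genes 2. Whether the numbers pair the uteri is not known, and 3 of 10 uteri correlated best with their own number, both of number 5 among them. For receptor signaling (4 called) the count was 8 with DESeq2, 7 with voom and 0 to 7 with each uterus left out. For processing and presentation (5 called) it was 3 with DESeq2 and 3 to 5 with each left out. For adhesion (5 called) it was 8 with voom and 2 to 7, and for other family genes (1 called) it was 4 with DESeq2, 2 without knockout replicates 1 and 5 and 1 to 2.

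Signs turned in members that had not passed. Under voom the log2 fold change was -0.0105 for *Ccl2*, -0.46 for *Ccl11*, -0.41 for *Ccl24*, 0.0872 for *Ccl25*, -0.50 for *Ccl28*, -0.39 for *Cxcl1*, -0.11 for *Cxcl10*, -0.0715 for *Ccr6*, -0.16 for *Ccr9*, -0.72 for *Cxcr2* and 0.0581 for *Cxcr5*. With the block it was -0.26 for *Ccl11*, -0.0586 for *Ccl24* and -0.26 for *Cxcl1*. Without knockout replicates 1 and 5 it was -0.69 for *Ccl11*, -0.94 for *Ccl24*, 0.0423 for *Ccl25*, -0.64 for *Ccl28*, -0.51 for *Cxcl1*, -0.21 for *Cxcl3*, -0.0461 for *Cxcl10*, -0.0783 for *Cxcl14*, -0.38 for *Ccr6*, -0.15 for *Ccr7*, -0.29 for *Ccr9* and -1.71 for *Cxcr2*. With each uterus left out it ranged from -0.66 to 0.26 for *Ccl11*, -1.34 to 1.04 for *Ccl24*, -0.10 to 0.0759 for *Ccl25*, -0.90 to 3.27 for *Cxcl1*, -0.28 to 0.16 for *Cxcl9*, -0.20 to 0.48 for *Cxcl10*, -0.21 to 0.97 for *Ccr6*, -0.14 to 0.18 for *Ccr9*, -0.81 to 4.59 for *Cxcr2*, -1.43 to 0.17 for *Cxcr5* and -0.19 to 0.0744 for *Ackr2*. At this depth, members under about 0.05 CPM rest on 3 counts or fewer per uterus.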
